A study of Mus musculus with 6 samples.

Results

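The 38 genes described here encode subunits of the 3 nuclear RNA polymerases and of TFIID, the general factor that recognises RNA polymerase II promoters. They comprise 27 polymerase subunit genes and 11 genes of TBP-associated factors (TAFs). Their members were the introns that lay inside the mm10 RefSeq span of one of these genes on its strand, which gave 422 of the 219945 introns listed for each library, in 38 of 24394 genes. The set was put together with earlier results of these libraries known and was selected on the higher unspliced share of single introns of Taf2 and Polr2k in knockout cells. Retention values of Taf2, Polr2k and Polr2e are therefore given as a description. Where a fit over all introns calls such an intron, the call is given as a count and nothing is read from it.

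The samples were VGB6 cells, a line of mouse embryonic stem (ES) cells, and compared 3 wild-type with 3 ZRSR2 knockout libraries. In each group the sample titles end in P2, P3 and P5. The meaning of the P was not given, and the numbers are used here as replicate numbers. All 6 were made from polyA-selected total RNA and carry no other treatment in their labels. Whether the numbered samples were separate cultures, whether the knockout was 1 clone and how ZRSR2 was inactivated were not given in the sources used here, and p-values reflect the scatter among these libraries alone, which could be of technical origin. For every intron the tables hold reads spliced across it, unspliced reads over its boundaries at either end, and the MSI, the unspliced reads as a percent of the unspliced plus 2 times the spliced reads.

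RNA polymerase I transcribes the large ribosomal RNA precursor, polymerase II the messenger RNAs and most spliceosomal small nuclear RNAs, and polymerase III transfer RNAs, 5S ribosomal RNA and U6. The enzymes have large catalytic subunits of their own and share several small subunits, and a few subunits are shared by polymerases I and III alone. TFIID is built from the TATA-binding protein and TAFs, some of which also belong to the SAGA coactivator. ZRSR2 is a component of the minor spliceosome that takes part in recognising the 3′ splice site of U12-type introns, a rare class found in genes of information processing among others. Introns were not classed by type here, as the sequences at hand held few of their splice sites. This includes the introns of Taf2 and Polr2k.

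Spliced reads numbered 19801687 to 63623214 per library, and members took 80570 to 258151 of them with 2395 to 7189 unspliced reads. Zrsr2 itself stood at 32.8, 40.02 and 32.5 counts per 1000000 (CPM) in wild-type cells and at 0.545, 0.385 and 0 CPM in knockout cells (edgeR quasi-likelihood test, log2 change −6.70, SE 0.58, adjusted p = 0.0207). Of 10 ES cell markers, 9 had listed introns, and they summed to 1506 to 1792 CPM in all 6 libraries. Of these 9, 3 had a higher and 6 a lower fitted level in knockout cells (median log2 change −0.32), and 0 passed in edgeR or DESeq2. At an unadjusted p under 0.05 in edgeR, 1 was higher and 2 were lower, beside 9.98% of all genes tested. Pou5f1, at 472 ± 128 CPM (SD, n = 3) in wild-type cells and 651 ± 50.6 in knockout cells, was higher in every knockout library, and Tdgf1, at 592 ± 24.1 and 474 ± 18.9 CPM, was lower in every one. Nanog had 93.9 ± 34.6 and 62.7 ± 7.75 CPM with overlapping groups. Markers of fibroblasts or feeder cells summed to 313, 147 and 72.8 CPM in wild-type replicates 2, 3 and 5. In knockout replicates 2, 3 and 5 they summed to 355, 224 and 36.9 CPM, so the sum fell in the same order in both groups. Endoderm markers summed to 34.2 to 54.4 CPM and trophoblast markers to 89.8 to 202 CPM. These sums overlapped between the groups, but the values of 4 single markers did not, among 5 endoderm and 5 trophoblast markers tested. Over all genes tested, 7.32% were higher and 8.02% lower in every knockout library. Of the 4 markers, Gata6 (0.845 ± 0.260 and 0.316 ± 0.144 CPM), Eomes (3.13 ± 0.470 and 1.56 ± 0.533 CPM) and Tfap2c (98.7 ± 37.5 and 70.8 ± 3.32 CPM) were lower in every knockout library, and Gata3 (0.674 ± 0.293 and 1.92 ± 0.706 CPM) was higher. Their edgeR adjusted p ran from 0.473 to 0.499. Lum, Sox17 and Elf5 had 4, 19 and 29 spliced reads over all libraries. The part of other cell types in the values below was not tested, and in bulk RNA fewer cells of a type and less RNA per cell cannot be told apart.

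The introns that chose the set, one of a TFIID gene and one of a shared polymerase subunit gene, had a higher unspliced share in every knockout library, as did 25 member introns in all. They were intron 12 of Taf2, with an MSI of 4.12% ± 1.28 in wild-type cells and 21.0% ± 4.03 in knockout cells (SD, n = 3), and intron 3 of Polr2k, with 0.670% ± 0.193 and 2.13% ± 0.330. At least 20 reads in every library were found for 417 of the 422 introns. Of these, 225 had a higher and 192 a lower odds of unspliced against spliced reads in knockout cells, with a median log2 odds ratio of 0.03 beside 0.02 over all 95371 introns tested. These 2 introns passed an adjusted p of 0.05 in edgeR's quasi-likelihood test, beside 0.0273% of all introns (26 of 95371). Since they chose the set, nothing is read from that count. The count was 0 without wild-type replicate 5, and it was 1, with Polr2k lost, without wild-type replicate 2 or knockout replicate 3. With limma on log2 ratios 0 member introns passed, and the log2 odds of the 2 introns were then 2.58 and 1.68.

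The MSI was higher in every knockout than in every wild-type library at 25 of the 417 introns and lower at 12, beside 3.9% and 4.01% of all introns tested. At an unadjusted p under 0.05 in edgeR there were 20 member introns, 14 higher and 6 lower, beside 4.14% of all introns. Both the 25 and the 14 include the 2 introns that chose the set. By complex, the median log2 odds were 0.04 for 60 introns of polymerase I subunits, 0.00 for 81 of polymerase II, 0.03 for 115 of polymerase III, −0.06 for 31 of shared subunits and 0.10 for 130 of TFIID. Pooled over all member introns, the MSI was 1.46%, 1.46% and 1.38% in wild-type cells and 1.35%, 1.68% and 1.52% in knockout cells. These pooled values overlapped between the groups, and so did those over all introns, at 1.65% to 1.75% and 1.56% to 1.89%. Many member introns were thinly covered: 8 of those tested had no unspliced read in any library, and 297 had at least 10 in all.

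**Figure D1:**
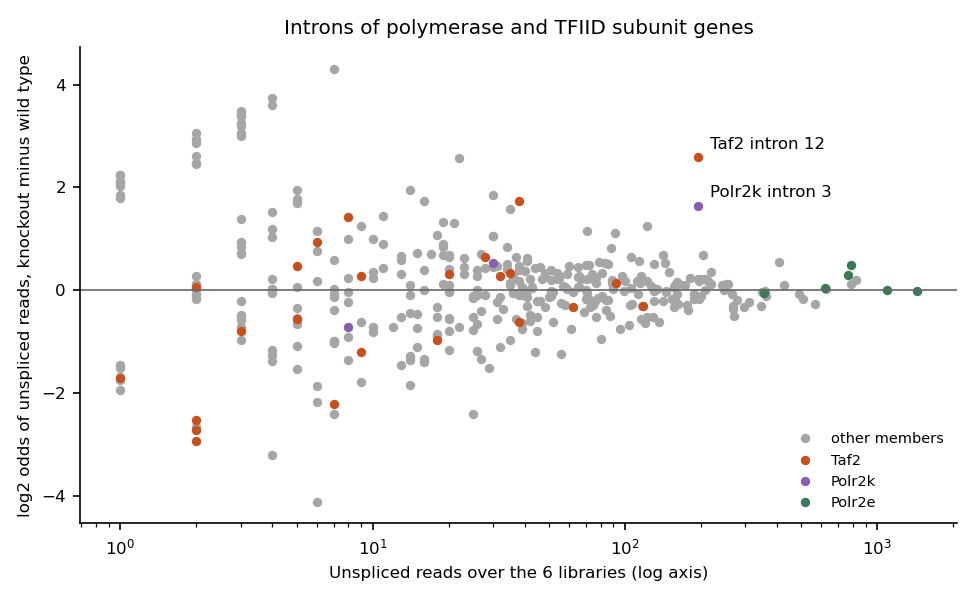
Log2 odds ratio of unspliced to spliced reads, knockout against wild type, for every member intron tested (vertical axis), by its unspliced reads over the 6 libraries (log axis). Taf2 intron 12 at 2.59 and Polr2k intron 3 at 1.64, which chose the set, stand above the other introns with more than 100 unspliced reads. The introns of Polr2e lie lower, on both sides of 0.

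Taf2 encodes the largest of the TAFs after Taf1, a subunit of the promoter-binding lobe of TFIID that contacts initiator DNA. The gene lies on chromosome 15, minus strand (55015129 to 55072187), and has 25 listed introns. Intron 12 (55048742 to 55049394, 653 bases) had 4, 18 and 12 unspliced reads in wild-type cells against 52, 153 and 188 spliced ones. In the knockout it had 67, 52 and 41 unspliced reads against 137, 76 and 95 spliced ones. The MSI was thus 3.70%, 5.56% and 3.09% in wild-type cells and 19.6%, 25.5% and 17.7% in knockout cells, and every knockout library lay above every wild-type library. The log2 odds ratio was 2.59 (SE 0.48).

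Both ends of Taf2 intron 12 contributed to this difference. At its 5′ end 3, 13 and 5 boundary reads were counted in wild-type cells and 34, 33 and 21 in knockout cells, or 5.64 ± 2.92 and 30.1 ± 11.6 per 100 spliced reads (SD, n = 3). At its 3′ end the reads were 1, 5 and 7 against 33, 19 and 20, or 2.97 ± 0.936 and 23.4 ± 2.07 per 100 spliced reads. The groups did not overlap at either end. Reads covered a mean fraction of 0.992 of the intron's bases in wild-type cells and all of it in knockout cells, so coverage was already near complete in both.

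**Figure D2:**
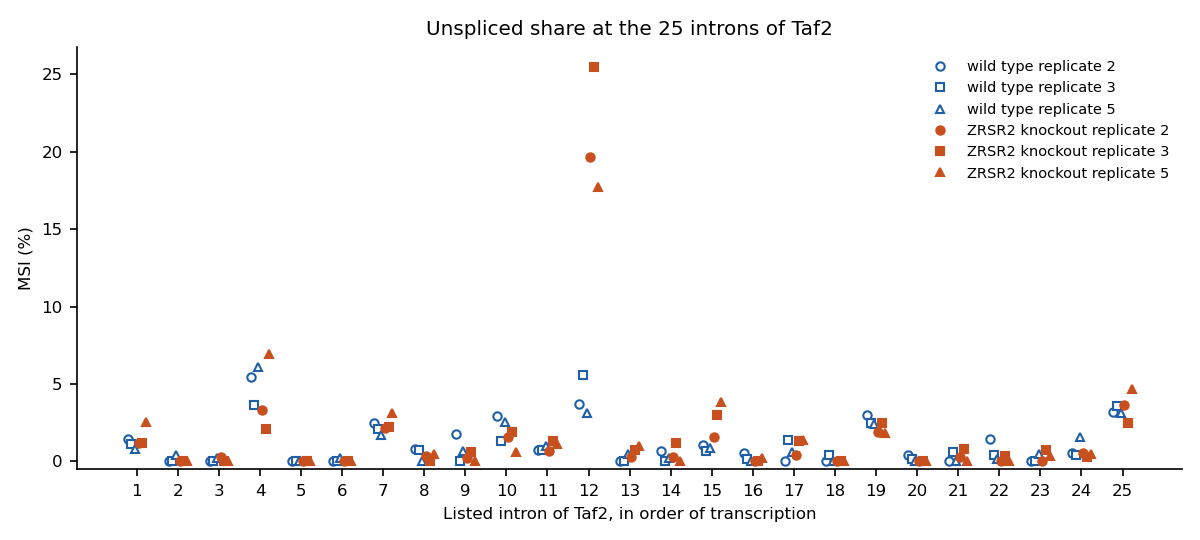
MSI in percent at each of the 25 listed introns of Taf2, numbered in the direction of transcription, with 1 symbol per library (open, wild type; filled, knockout). Intron 12 is the one where the knockout libraries, at 17.7% to 25.5%, stand far above the wild-type ones, at 3.09% to 5.56%.

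The introns next to Taf2 intron 12 had few unspliced reads in either genotype. Intron 11 had an MSI of 0.752%, 0.750% and 0.971% in wild-type cells and 0.669%, 1.34% and 1.12% in knockout cells, and introns 13 and 14 had 8 and 6 unspliced reads over all libraries. Intron 15 (55045989 to 55047417) was the other Taf2 intron with separate groups, at 1.05%, 0.651% and 0.837% in wild-type cells and 1.57%, 3.01% and 3.86% in knockout cells (log2 odds 1.74, SE 0.67). All 38 of its unspliced reads lay at its 5′ end and 0 at its 3′ end, and its bases were covered over mean fractions of 0.153 in wild-type cells and 0.0798 in knockout cells. The remaining 23 introns had overlapping groups. The highest wild-type MSI among them was at intron 4, with 5.42%, 3.66% and 6.10% in wild-type cells and 3.35%, 2.08% and 6.91% in knockout cells.

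Spliced reads of Taf2 as a whole did not differ beyond the spread of the libraries. The gene had 109, 106 and 99.0 CPM in wild-type cells and 96.2, 125 and 122 CPM in knockout cells, a log2 change of 0.13 (SE 0.12), or 0.07 without knockout replicate 3 and 0.24 without knockout replicate 2. Intron 12 made up 2.37%, 2.65% and 2.90% of the gene's spliced reads in wild-type cells and 2.35%, 1.95% and 2.16% in knockout cells, so spliced reads over this intron took a lower share in every knockout library (log2 odds −0.32, SE 0.12). The margin between the groups was narrow, with knockout replicate 2 at 2.35% and wild-type replicate 2 at 2.37%.

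Polr2k encodes the smallest of the subunits common to the 3 polymerases, a zinc-binding protein. It lies on chromosome 15, plus strand (36174010 to 36177012), and has 3 listed introns. Intron 3 (36175477 to 36176753, 1277 bases) had 7, 29 and 17 unspliced reads in wild-type cells and 66, 41 and 34 in knockout cells, against 599, 1612 and 1573 spliced reads in wild-type cells and 1555, 804 and 910 in knockout cells. Its MSI was 0.581%, 0.891% and 0.537% in wild-type cells and 2.08%, 2.49% and 1.83% in knockout cells (log2 odds 1.64, SE 0.34), with no overlap between the groups. The unspliced share was lower than at Taf2 intron 12 in both genotypes, on more spliced reads.

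At Polr2k intron 3 the groups were separate at 1 of the 2 ends. The 5′ end had 6, 13 and 12 boundary reads in wild-type cells and 51, 35 and 24 in knockout cells, 0.857 ± 0.127 and 3.42 ± 0.867 per 100 spliced reads, with separate groups. The 3′ end had 1, 16 and 5 reads in wild-type cells and 15, 6 and 10 in knockout cells, 0.492 ± 0.440 and 0.937 ± 0.178 per 100 spliced reads, and there the groups overlapped. The RefSeq span of Spag1, a dynein arm assembly gene on the same strand, begins inside this intron and covers its 3′ end but not its 5′ end. Spag1 had 10.6, 10.1 and 8.35 CPM in wild-type cells and 14.9, 14.7 and 14.5 CPM in knockout cells (edgeR adjusted p = 0.406), and its part in the unspliced reads of Polr2k was not tested.

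**Figure D3:**
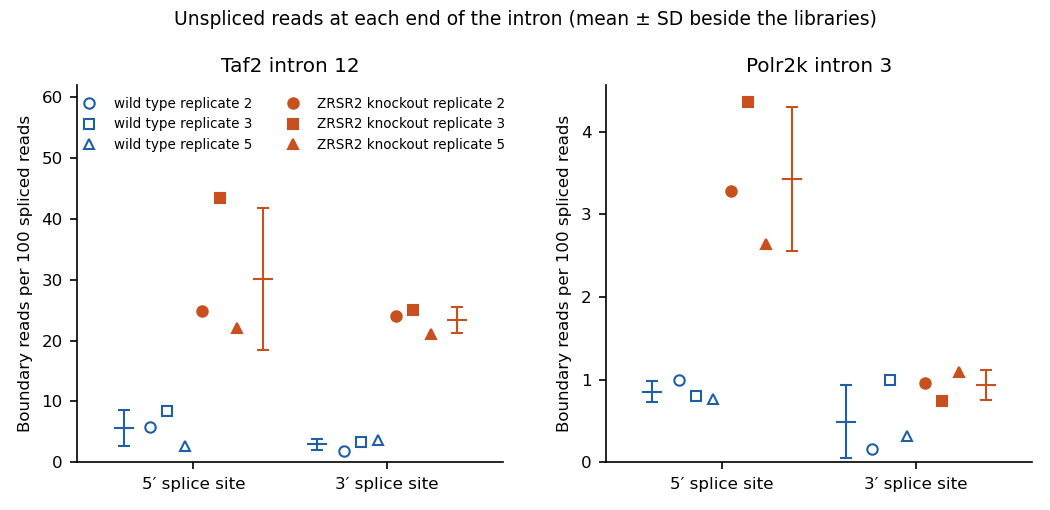
Boundary reads per 100 spliced reads at the 5′ and 3′ splice site of Taf2 intron 12 (left) and Polr2k intron 3 (right), 1 symbol per library with the mean and SD of each group (n = 3) beside them. At Taf2 the groups are apart at both ends, whereas at Polr2k they are apart at the 5′ end and overlap at the 3′ end.

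The other Polr2k introns were spliced almost completely. Intron 1 had an MSI of 0.210%, 0.266% and 0.477% in wild-type cells and 0.642%, 0.348% and 0.424% in knockout cells. Intron 2 had 8 unspliced against 12682 spliced reads over all libraries. Polr2k had 84.3, 95.1 and 75.3 CPM in wild-type cells and 90.1, 89.9 and 86.9 CPM in knockout cells, a log2 change of 0.07 (SE 0.11) with overlapping groups. Intron 3 held 35.3%, 31.0% and 31.9% of the gene's spliced reads in wild-type cells and 28.5%, 28.7% and 29.2% in knockout cells (log2 odds −0.25, SE 0.08), a lower share in every knockout library.

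Polr2e encodes another subunit common to the 3 polymerases, which sits at the jaw of the enzyme. It lies on chromosome 10, minus strand (80035953 to 80039659), and is among the more highly expressed members, with a median of 51.1 ± 4.20 CPM per junction in wild-type cells. At each of its 6 introns the MSI overlapped between the groups. The shortest of them, intron 4 (80036843 to 80036914, 72 bases), had 1.24%, 3.27% and 2.28% in wild-type cells and 2.73%, 3.93% and 2.96% in knockout cells (log2 odds 0.49, SE 0.26), or 0.21 without wild-type replicate 2 and 0.83 when replicate 3 of that group was omitted. Intron 6 had the highest values, with 5.39%, 4.92% and 4.48% in wild-type cells and 4.42%, 4.89% and 5.29% in knockout cells (log2 odds −0.02, SE 0.25).

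When the ends were counted apart, 1 of the 12 intron ends of Polr2e had separate groups. This was the 3′ end of intron 5, with 31, 140 and 132 boundary reads in wild-type cells and 183, 78 and 92 in knockout cells, 4.21 ± 0.861 and 5.32 ± 0.317 per 100 spliced reads. The share of separate ends over all introns was not computed. For the MSI of whole introns, 3.9% of all introns tested were separate and higher and 4.01% separate and lower. Nothing is therefore read from this 1 end. Polr2e had 330, 342 and 295 CPM in wild-type cells and 364, 321 and 359 CPM in knockout cells, a log2 change of 0.11 (SE 0.09), or 0.05 without wild-type replicate 5 and 0.17 when knockout replicate 3 was omitted. At this depth, 355 to 1439 unspliced reads per intron, the log2 odds of the 6 introns ranged from −0.06 to 0.49 with standard errors of 0.25 to 0.29.

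**Figure D4:**
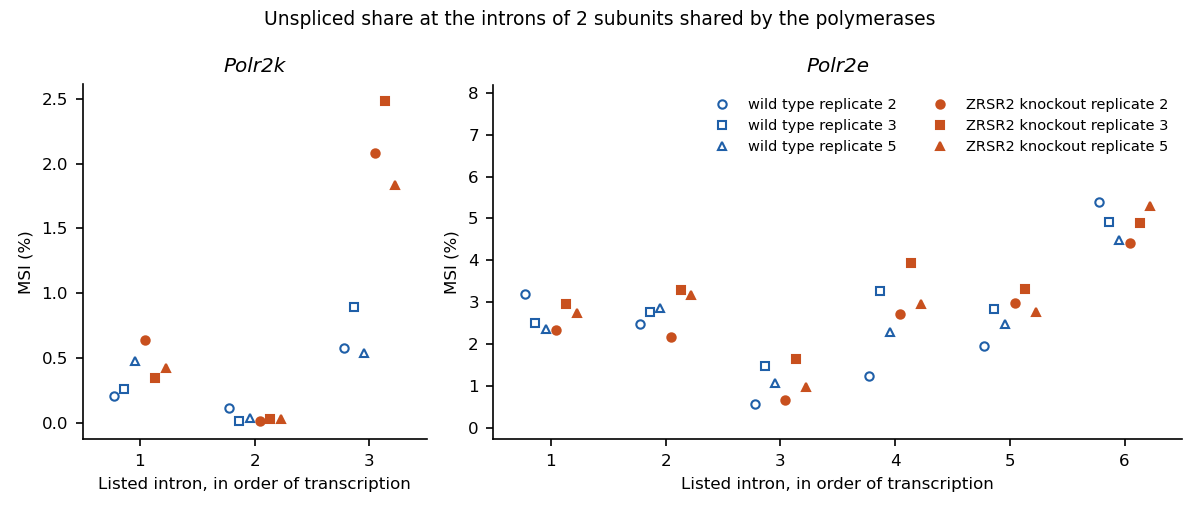
MSI in percent at the listed introns of Polr2k (left) and Polr2e (right), 1 symbol per library (open, wild type; filled, knockout), on separate vertical scales. The groups are apart at Polr2k intron 3 and overlap at both other Polr2k introns and at all 6 introns of Polr2e.

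Next after the 2 introns past the threshold came intron 3 of Polr2j, named here after its values were seen, at an edgeR adjusted p of 0.879. Polr2j encodes a small subunit particular to polymerase II, and this intron (chromosome 5, 136120085 to 136122088) had an MSI of 0.382%, 0.509% and 0.512% in wild-type cells and 1.18%, 0.892% and 1.35% in knockout cells (log2 odds 1.24, SE 0.39), with separate groups. Its unspliced reads numbered 4, 17 and 15 in wild-type cells and 42, 15 and 29 in knockout cells.

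The other introns with a large log2 odds ratio and at least 10 unspliced reads rested on few of them. Intron 8 of Polr3c, a subunit of the polymerase III trimer that acts in initiation, had 0, 2 and 1 unspliced reads in wild-type cells and 8, 6 and 5 in knockout cells (log2 odds 2.57, SE 0.85), with an MSI of 0.141% ± 0.139 and 1.19% ± 0.271. Intron 13 of Polr3e, a subunit of the TFIIF-like dimer of polymerase III, had 1, 2 and 3 against 8, 6 and 10 unspliced reads (log2 odds 1.86, SE 0.70). In both cases the MSI was higher in every knockout library. Intron 2 of Polr3g, intron 4 of Taf1 and intron 4 of Taf12 had log2 odds of 1.95, 1.74 and 1.58 with overlapping MSI. The value for Polr3g was 0.64 without knockout replicate 5, and without wild-type replicate 5 the wild type had 0 unspliced reads there, so that no size is given. That for Taf1 ran from 0.89 without wild-type replicate 5 to 3.22 without wild-type replicate 3. None of these 5 passed in edgeR (adjusted p = 1 for each).

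In the opposite direction, intron 11 of Polr2a, the catalytic subunit gene of polymerase II, had 1, 7 and 14 unspliced reads in wild-type cells and 3, 0 and 0 in knockout cells (log2 odds −2.40, SE 0.79). Intron 5 of Polr1b, the second largest subunit of polymerase I, was the one of the 5 lowest introns with separate groups, at an MSI of 1.58%, 1.16% and 0.920% in wild-type cells and 0.268%, 0.344% and 0.599% in knockout cells (log2 odds −1.50, SE 0.68). Intron 1 of Polr3e, intron 3 of Taf13 and intron 14 of Polr1e had −1.84, −1.46 and −1.36 with overlapping MSI. These values changed to −1.13 for Polr3e without wild-type replicate 5, to −0.91 for Taf13 without knockout replicate 5 and to −0.38 for Polr1e without wild-type replicate 3. Without knockout replicate 2, Polr2a intron 11 and Taf13 intron 3 had 0 unspliced reads in the knockout, and their fitted values are then no measure of size. All 5 had an edgeR adjusted p of 1.

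The introns that were least completely spliced in wild-type cells had overlapping values in knockout cells. Polr1b intron 11 (chromosome 2, 129118099 to 129119039) had an MSI of 16.3%, 21.3% and 15.01% in wild-type cells and 18.1%, 21.7% and 19.6% in knockout cells (log2 odds 0.20, SE 0.30). In wild type this was above the 4.12% ± 1.28 of Taf2 intron 12, and in knockout cells the groups of values were close, at 19.8% ± 1.79 and 21.0% ± 4.03. Polr3d intron 7 followed with 9.57% ± 1.34 in wild-type cells and 9.09% ± 1.29 in knockout cells, Taf6 intron 10 with 8.17% ± 1.04 and 8.01% ± 2.73, Taf4 intron 8 with 6.82% ± 1.30 and 7.03% ± 1.05, and Polr1c intron 8 with 5.48% ± 1.61 and 5.32% ± 2.12. All of these overlapped between the groups and had log2 odds between −0.16 and 0.20. The median member intron had an MSI of 0.811% in wild-type cells and 0.818% in knockout cells.

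The share of a gene's spliced reads that fell on each of its introns could be tested for 414 member introns. None passed in edgeR, beside 0.00109% of all introns (1 of 91942), and 25 had an unadjusted p under 0.05, beside 4.57% of all introns. DESeq2 was not run on this measure. The smallest p was at intron 5 of Polr3e, named after its values were seen, with 4.70% of the gene's spliced reads in wild-type cells and 3.69% in knockout cells (log2 odds −0.36, adjusted p = 0.968).

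At the level of whole genes, 25 of 27 polymerase subunit genes and 6 of 11 TFIID genes had a higher fitted level of spliced reads in knockout cells, but no single gene passed the test. Whether the complexes differed in this was not tested. Of all 38 genes, which were all measured, 31 had a higher and 7 a lower fitted level, beside 49.1% of all 16730 genes with a positive log2 change. Their median log2 change was 0.13, beside −0.01 for all genes. In edgeR 0 of the 38 passed an adjusted p of 0.05, beside 0.0179% of all genes (3 of 16730), and 1 (Polr1e) had an unadjusted p under 0.05, beside 9.98% of all genes. DESeq2 called 0 of the 38, beside 1.26% of all genes.

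Of the 38 genes, 4 were higher in every knockout than in every wild-type library, beside 7.32% of all genes, and 0 were lower in every knockout library, beside 8.02%. These 4, named by their separation, were Polr1e, Polr2c, Polr3e and Polr2h. Summed over the 27 polymerase genes, the level was 3332, 3771 and 3032 CPM in wild-type cells and 3621, 3624 and 3936 CPM in knockout cells, so the groups overlapped and wild-type replicate 5 was lowest. Without that library the median member change was 0.09, with 27 higher and 11 lower. Without wild-type replicate 3, by contrast, it was 0.17, and 13 members instead of 1 had an unadjusted p under 0.05 in edgeR, 0 of them past the adjusted threshold.

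**Figure D5:**
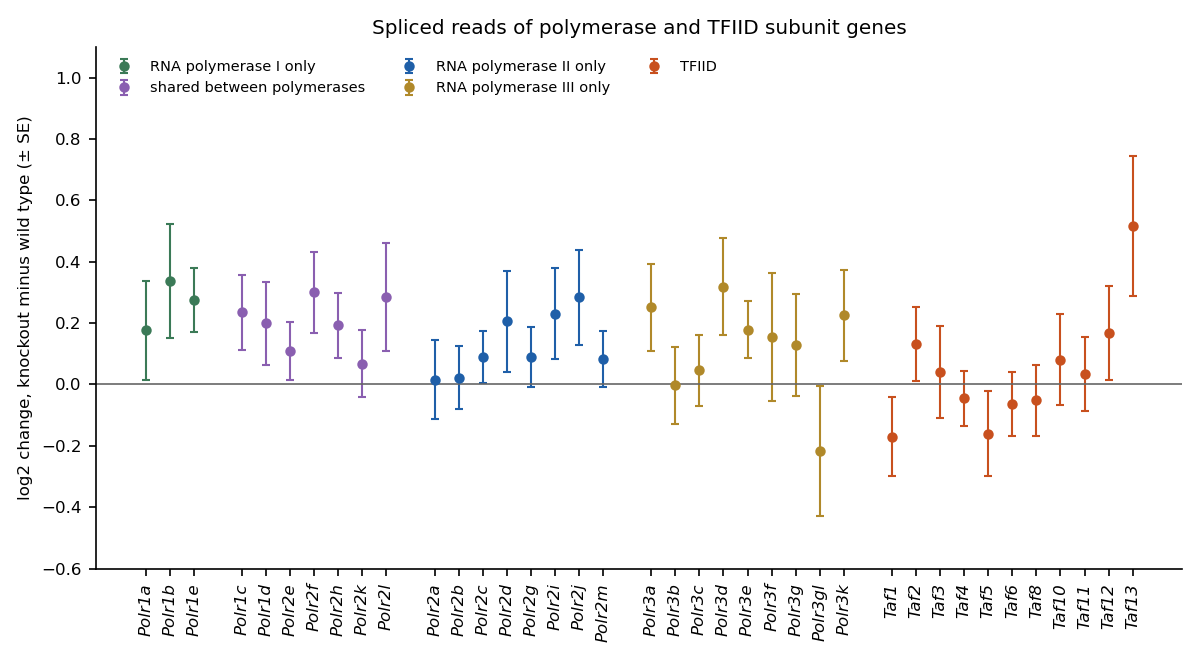
Log2 change of spliced reads (knockout minus wild type) with its standard error for each of the 38 genes, grouped by complex. With reads summed per gene, polymerase I, polymerase II and shared subunits lie above 0, at 0.02 to 0.34, whereas TFIID subunits lie on both sides, from −0.17 for Taf1 to 0.52 for Taf13.

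The 3 genes particular to polymerase I had a median log2 change of 0.28. Polr1e, a subunit with a role in loading the enzyme on ribosomal DNA, had 61.7, 67.7 and 55.9 CPM in wild-type cells and 72.0, 75.8 and 76.4 CPM in knockout cells (log2 change 0.28, SE 0.11, edgeR adjusted p = 0.484, or 0.0305 before adjustment). Polr1a, the largest subunit, had 204, 234 and 164 CPM in wild-type cells and 185, 243 and 253 CPM in knockout cells, a log2 change of 0.18 (SE 0.16). With 1 library omitted this ran from 0.05 (wild-type replicate 5) to 0.31 (knockout replicate 2). Polr1b had 106, 124 and 73.8 CPM against 111, 134 and 139 CPM, a log2 change of 0.34 (SE 0.19), or 0.15 without wild-type replicate 5 and 0.51 when replicate 3 of that group was omitted. The values of Polr1a and Polr1b overlapped between the groups.

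All 7 subunits shared between polymerases had positive log2 changes, with a median of 0.20, though Polr2k was at −0.11 when the median over its introns was taken in place of the sum and at −0.01 without wild-type replicate 5. The highest was that of Polr2f, a subunit common to all 3 enzymes, with 217, 257 and 195 CPM in wild-type cells and 312, 243 and 269 CPM in knockout cells (log2 change 0.30, SE 0.13, edgeR adjusted p = 0.495), or a log2 change of 0.20 without knockout replicate 2. Polr2h, likewise common to all 3, had 98.7, 107 and 85.7 CPM in wild-type cells and 112, 108 and 113 CPM in knockout cells (log2 change 0.19, SE 0.11, adjusted p = 0.536), with separate groups. Polr1c and Polr1d, the subunits shared by polymerases I and III, had log2 changes of 0.24 and 0.20. Polr2l, with its single listed intron, had 0.29 (SE 0.18).

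The 8 genes particular to polymerase II all had fitted changes above 0, with a median of 0.09, though Polr2a was at −0.04 with the median over its introns and between −0.10 and 0.12 when 1 library was left out. Polr2a had 481, 550 and 456 CPM in wild-type cells and 426, 496 and 581 CPM in knockout cells, a log2 change of 0.02 (SE 0.13) that was not distinguishable from 0. Polr2b, the second largest subunit, had 0.02 (SE 0.10). The highest was Polr2j, with 61.7, 80.9 and 53.1 CPM in wild-type cells and 82.8, 77.0 and 78.5 CPM in knockout cells (log2 change 0.28, SE 0.15, edgeR adjusted p = 0.533). The change was 0.12 with the median over its introns, 0.15 without wild-type replicate 5 and 0.47 when replicate 3 of that group was omitted. Polr2c, which starts enzyme assembly with the product of Polr2j, had 149, 163 and 162 CPM against 170, 163 and 171 CPM (log2 change 0.09, SE 0.08). Its groups were separate by a narrow margin.

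Of the 9 genes particular to polymerase III, 7 had higher and 2 lower fitted levels, with a median of 0.16. Polr3d, the partner of Polr3e in the enzyme, had 44.5, 64.4 and 45.2 CPM in wild-type cells and 58.8, 67.1 and 66.5 CPM in knockout cells (log2 change 0.32, SE 0.16, edgeR adjusted p = 0.510), or a log2 change of 0.52 without wild-type replicate 3. Polr3e had 125, 122 and 117 CPM in wild-type cells and 138, 127 and 147 CPM in knockout cells (log2 change 0.18, SE 0.09, adjusted p = 0.522), with separate groups. The alternative subunits Polr3g, known from pluripotent cells, and Polr3gl, its counterpart in most differentiated cells, had log2 changes of 0.13 (SE 0.17) and −0.22 (SE 0.21). Polr3gl had 19.3, 20.2 and 22.5 CPM in wild-type cells and 14.1, 15.3 and 24.1 CPM in knockout cells. Its change was −0.07 without knockout replicate 2, −0.11 without knockout replicate 3, −0.50 without knockout replicate 5, −0.37 with the median over its introns and −0.08 with nested introns left out. Per junction, Polr3g stood at 7.37 ± 1.37 CPM in wild-type cells and 7.90 ± 1.20 in knockout cells, and Polr3gl at 3.57 ± 0.221 and 2.79 ± 0.848.

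The 11 TFIID genes had 6 positive and 5 negative log2 changes, with a median of 0.03. Taf13, a histone-fold TAF that pairs with Taf11, had 20.6, 27.5 and 16.0 CPM in wild-type cells and 23.3, 34.2 and 34.4 CPM in knockout cells (log2 change 0.52, SE 0.23, edgeR adjusted p = 0.495), the largest change among the 38 genes, with overlapping groups. It was 0.34 without wild-type replicate 5. Its partner Taf11 had 27.4 ± 2.77 and 28.0 ± 1.09 CPM (log2 change 0.03, SE 0.12). Taf1, the largest TAF and scaffold of the complex, had 162, 147 and 155 CPM in wild-type cells and 111, 152 and 148 CPM in knockout cells (log2 change −0.17, SE 0.13, adjusted p = 0.629), or a log2 change of −0.04 without knockout replicate 2. Taf3, which binds trimethylated histone H3, stood at 9.99, 10.03 and 9.99 CPM in wild-type cells and 10.2, 9.59 and 11.0 CPM in knockout cells.

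Per junction, the order of levels was led by Polr2l at 65.2 ± 13.8 CPM in wild-type cells, Polr2f at 58.1 ± 7.81 and Polr2e at 51.1 ± 4.20, whose spreads overlapped. Polr2m, which encodes a protein that associates with polymerase II, followed at 36.4 ± 1.14. At the low end stood Polr3f at 2.504 ± 0.521, Polr3a at 2.60 ± 0.408 and Taf5 at 2.77 ± 0.516, which did not differ beyond their spread. In the knockout the first 3 stood at 79.4 ± 12.7, 71.6 ± 7.56 and 54.7 ± 5.10 CPM. Among TFIID genes Taf10 was highest per junction, with 26.7 ± 1.69 CPM in wild-type cells and 28.0 ± 5.80 in knockout cells, and Taf2 had 4.13 ± 0.443 and 4.43 ± 0.660. Each of these values is the median over the listed introns of a gene.

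Among related genes outside the set there were 0 calls in edgeR and in DESeq2 in every list. The 7 measured of 8 other TFIID-related genes had 4 positive and 3 negative log2 changes (median 0.06), with Taf15 at 406 ± 47.8 and 423 ± 35.2 CPM and Taf9 at 72.1 ± 8.94 and 80.3 ± 3.36 CPM. The 5 measured of 8 further polymerase subunit symbols were all positive (median 0.20), with Znrd1 at 42.0 ± 3.39 and 48.9 ± 5.79 CPM. Of 17 other general factors of polymerase II, 14 were positive (median 0.16), and Gtf2f1, the large subunit of TFIIF, had 168 ± 30.01 and 206 ± 16.1 CPM. None of the genes in these 3 lists had an unadjusted p under 0.05.

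Factors of polymerase I were positive in 7 of 7 genes (median 0.23), with Ubtf, the factor bound along active ribosomal genes, at 421 ± 93.3 and 471 ± 29.5 CPM, and 1 unadjusted p under 0.05, that of Taf1a. Factors of polymerase III were positive in 11 of 16 (median 0.09), with Gtf3c2 at 207 ± 26.1 and 228 ± 14.8 CPM. The 1 unadjusted p under 0.05 there was that of Brf1, a TFIIIB subunit, with 28.6 ± 2.39 and 39.0 ± 2.88 CPM, separate groups and an edgeR adjusted p of 0.427. The SAGA list had 3 positive and 5 negative changes (median −0.03) and 0 unadjusted p under 0.05, and the list of elongation and assembly genes had 9 and 2 (median 0.08) and 1 such p, that of Gpn1. Brf1, Taf1a and Gpn1 are named after their values were seen. Supt20 of SAGA had 173 ± 19.1 and 191 ± 11.7 CPM, and Supt5, an elongation factor that binds polymerase II, had 506 ± 58.3 and 538 ± 14.7 CPM.

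Some members have listed introns that lie one inside another, and these show alternative joins of the same transcripts. The spliced count of an inner intron was at least that of the outer one in all 113450 same-strand values with outer reads, so the count covers every spliced read whose gap spans the intron, and gene sums count such a read more than once. This touched 47 introns in 15 of the 38 genes. At 9 places in these genes the outer join skips what lies between a pair of inner introns, and the share that skips could be read off. The groups overlapped at all 9.

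Polr2a reads skipped an exon of 114 bases at 5.96% ± 0.540 in wild-type cells and 6.61% ± 0.508 in knockout cells (SD, n = 3). Polr2d skipped one of 96 bases at 8.19% ± 1.51 and 8.57% ± 1.92, and Polr3gl one of 168 bases at 18.4% ± 3.85 and 16.2% ± 5.85. In Polr3e an exon of 78 bases was skipped at 13.6% ± 1.16 in wild-type cells and 11.1% ± 1.91 in knockout cells, with 12.9%, 14.9% and 12.9% against 10.5%, 13.2% and 9.48%. Taf1 has 2 very short exons, of 15 and 6 bases, that were skipped in 99.9% ± 0.0915 and 99.9% ± 0.232 of reads in wild-type cells and in 100% ± 0 and 99.7% ± 0.282 in knockout cells. Short alternative exons of Taf1 are known from neurons.

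For Polr2h and Taf6 the 5′ splice sites near the transcription start are shown, since these are the member introns whose donor lies in the promoter sequences at hand (RefSeq, GRCm38.p6). Exon bases are in lower case and the first 15 bases of the intron in capitals, 5′ to 3′. The Polr2h sites, which share a 3′ splice site, lie at chr16:20717980-20718009 and chr16:20718152-20718181 on the plus strand, and the Taf6 site at chr5:138187376-138187405 on the minus strand.
Polr2h first donor: agaaatttgaccgagGTAAGCGGTGTCGGG
Polr2h second donor: ggtgcctggtgcccgGTGGGTGGCCCTTAG
Taf6 donor: ggtcctgacagctggGTAATGAAGATACAA
All begin the intron with GT. At the second Polr2h donor the spliced count exceeded that of the outer join by 0, 2 and 4 reads in wild-type cells and by 1, 0 and 0 in knockout cells, so nearly all reads used the first donor in both genotypes. The Taf6 donor was joined in 9, 33 and 30 reads in wild-type cells and in 29, 16 and 18 in knockout cells. An inner join to the same 3′ splice site exceeded this count by 44, 105 and 133 reads in wild-type cells. In knockout cells the excess was 174, 64 and 72 reads, so the donor shown was the less used one in both genotypes.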

How the data were processed

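Gene expression and splicing were measured in 6 libraries (3 wild type, 3 ZRSR2 knockout). Per the labels, polyA-selected RNA was made into TruSeq libraries, and the submitters' processing notes name the genome build mm10. The aligner, the counting tool, its strand setting and the intron annotation were not given in the sources used here. The authors deposited, per library and intron, counts of reads at either boundary and of spliced reads, the fraction of the intron covered, and the MSI as a percent. The headers do not define these columns. The percent equalled that computed from the counts in every row, and introns that share a coordinate had equal boundary counts there, which assigned the boundary columns to intron ends.

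Members and gene lists were chosen with earlier results of these data known. Spans came from RefSeq, and the strand of 32 genes from its promoter table and of 6 from their introns. Spliced counts were summed per gene and tested in edgeR 4.0.16 (quasi-likelihood, TMM, genes kept by filterByExpr, R 4.3.3). Retention was tested as the genotype effect on the odds of unspliced against spliced reads, library terms included, for introns with at least 20 reads in every library. Usage compared an intron's spliced reads with the rest of its gene's. P-values were adjusted by Benjamini-Hochberg over all features tested, with a threshold of 0.05. CPM used TMM factors. Alternatives were DESeq2 1.42.0, limma 3.58.1, other filters and scalings, single boundaries, a replicate block, and leaving out each library. Named were the introns with the 5 highest and 5 lowest log2 odds (at least 10 unspliced reads), the 5 with the highest wild-type MSI (at least 100 spliced reads per library), at most 1 per gene, and those past the threshold. Named genes were Taf2, Polr2k, Polr2e and, per complex, the largest rise, the largest fall and the highest level; other members are named for their role after their values were seen. Within groups, counts of replicates differed beyond sampling noise (chi-square over its degrees of freedom, 18.78 to 96.34). The fits were tested on simulated counts, whose scatter was set and not taken from these libraries. The retention fit recovered 7.37% of introns with a true log2 change of 1 and 88.9% with 2, with 0 false calls. The gene fit recovered 99% and 100% of genes, with 14 false calls. Introns with a log2 change of 1 were thus mostly missed. The simulation held 100 genes with each change, whereas 3 genes passed in these libraries. With more changed genes the adjusted threshold is easier to reach, so the recovered shares of genes may not hold here.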

Additional observations from a re-analysis of the deposited data

How the results depend on the processing

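Gene level kept 0 member calls under every alternative: DESeq2, its size factors in edgeR, no filter, the median over introns, nested introns left out (chosen after seeing the data, 37 genes) and each library left out. For retention, 2 member introns passed in the main fit, 1 with at least 10 unspliced reads (Taf2), 1 with the lower-coordinate boundary alone (Polr2k), 0 with the higher-coordinate boundary alone, 0 with limma, and 0 to 2 without 1 library. Intron usage kept 0 calls throughout. Taf2 intron 12 and Polr2k intron 3 had log2 odds of 2.33 to 2.93 and 1.45 to 1.95 without 1 library. Polr2k intron 3 had 0.75 at the higher-coordinate boundary, its 3′ end. Both kept their direction in all of these fits, but they chose the set in the same libraries, so nothing is read from that. The cause of the lost calls was not tested beyond the fewer reads or libraries in some of these fits.

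With the replicate number as a block, 0 genes, 2 introns for retention (log2 odds 2.63 and 1.68) and 0 for usage were called. Deviations of same-numbered libraries correlated at 0.063, 0.069 and 0.016. Wild-type replicates 2 and 3 correlated best with the knockout library of the same number, and wild-type replicate 5 with knockout replicate 2, at 0.059. The main fits did not pair the libraries by number. Fibroblast or feeder marker sums fell from replicate 2 to 3 to 5 in both genotypes, and whether same-numbered libraries shared a factor was not tested further. The block turned Polr2e intron 3 to 0.073.

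Of the 38 genes, 27 were higher and 11 lower with the median over introns, and likewise when wild-type replicate 5 was omitted. They were 28 and 10 when knockout replicate 5 was omitted, and 30 to 32 were higher in the other fits. Among genes and introns named by rule, the signs that turned were of changes that passed no test. In gene level they were Polr2a (−0.041) and Polr2k (−0.11) with the median over introns, and without 1 library Polr2a (−0.10 to 0.12) and Polr2k (−0.013 to 0.16). In log2 odds with the lower-coordinate boundary alone they were Polr2e intron 2 (−0.059), Polr2k intron 1 (−0.43), Taf2 introns 1, 4 and 15 (−0.57, 0.30 and −0.013), Polr1b intron 5 (1.68), Taf6 intron 10 (0.85) and Polr1c intron 8 (0.079). With the higher-coordinate boundary alone they were Polr2e introns 1, 3 and 6 (−0.11, 0.13 and 0.018), Taf2 introns 10, 11 and 17 (0.23, −0.012 and −0.23) and Polr3d intron 7 (0.021). With limma it was Polr2e intron 3 (0.083). Without 1 library the log2 odds ran from −0.074 to 0.13, −0.061 to 0.25, −0.42 to 0.26 and −0.086 to 0.061 at Polr2e introns 1, 2, 3 and 6, from −0.0019 to 1.14, −1.43 to 0.10 and −0.046 to 0.32 at Taf2 introns 17, 24 and 25, and from −0.22 to 0.28 at Taf6 intron 10, −0.21 to 0.039 at Polr3d intron 7, −0.47 to 0.17 at Polr1c intron 8 and −0.040 to 0.22 at Taf4 intron 8. Taf2 intron 15 had 0 reads at its lower-coordinate boundary in every library, as did Taf2 intron 11 at its higher-coordinate one. Polr1b intron 5 had 1 read at its lower-coordinate boundary, in knockout replicate 3. The fitted values at these boundaries are therefore no measure of size or direction. Introns with few unspliced reads limit what these counts show.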
